A study of Homo sapiens with 4 samples.

Results

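The 9 genes described here encode transcription factors that direct the choice between myeloid lineages: SPI1 (PU.1), IRF8, GFI1, KLF4, EGR1, EGR2, BCL6, NR4A1 and ZEB2. They were chosen by symbol, and each symbol matched 1 Ensembl identifier, so they are 9 of 41084 identifiers in the gene-level files. C/EBP genes were left out of the set. RNA came from OCI-AML3, an established human acute myeloid leukaemia line, in 4 libraries: 2 labelled Plex Control and 2 labelled Plex CEBPB. The sources used here do not explain the word Plex, and they do not say whether the 2 libraries of a group came from separate cultures. The p-values therefore measure the spread between these libraries, which may be technical. The series title links C/EBPβ, IL-1β and TNFα to drug resistance, against BCL2 and MDM2 inhibitors, in this kind of leukaemia.

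Myeloid precursors choose between granulocytes, monocytes and dendritic cells through factors that promote one programme and hold back another. PU.1, an ETS-family activator, is needed for both main myeloid branches, with high activity favouring monocytes and macrophages. IRF8 binds DNA together with PU.1 and drives monocyte and dendritic cell genes, and KLF4 acts in monocytes downstream of IRF8. GFI1 is a zinc finger repressor of the granulocyte branch that silences monocytic regulators, while EGR1 and EGR2 are zinc finger factors induced on the way to macrophages and oppose GFI1. BCL6 is a repressor that recruits corepressors through its BTB domain, NR4A1 is an orphan nuclear receptor of patrolling monocytes that is also induced within minutes of a stimulus, and ZEB2 is a repressor needed in monocytes and dendritic cells.

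Promoter stretches are shown here for 4 of the factors because each holds the recognition letters of a regulator that bears on the set: a serum response element, an EGR site, a GFI1 site or a C/EBP site. The sequences are those of RefSeq on GRCh38.p14, and positions count back from the annotated start, whose preceding base is -1. Capitals mark CArG boxes (the serum response factor element) and the EGR letters in EGR1, a CArG box and the GFI1 letters in EGR2, the C/EBP letters in GFI1, and the EGR and GFI1 letters in KLF4. The 4 stretches are chr5:138465229-138465478 on the plus strand for EGR1, and chr10:62816367-62816516, chr1:92486179-92486299 and chr9:107489869-107489989 on the minus strand for EGR2, GFI1 and KLF4. None of these bases lies in an exon of GENCODE v29. The EGR1 stretch lies before the gene, and the other 3 fall in introns of the longest gene models.
EGR1: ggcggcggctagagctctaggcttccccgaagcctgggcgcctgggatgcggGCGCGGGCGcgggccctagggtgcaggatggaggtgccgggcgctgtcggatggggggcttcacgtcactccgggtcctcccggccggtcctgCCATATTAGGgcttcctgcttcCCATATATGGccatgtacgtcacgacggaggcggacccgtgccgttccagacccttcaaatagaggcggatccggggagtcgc
EGR2: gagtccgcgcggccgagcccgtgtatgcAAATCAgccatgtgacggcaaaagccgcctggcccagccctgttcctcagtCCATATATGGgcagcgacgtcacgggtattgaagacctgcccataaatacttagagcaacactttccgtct
GFI1: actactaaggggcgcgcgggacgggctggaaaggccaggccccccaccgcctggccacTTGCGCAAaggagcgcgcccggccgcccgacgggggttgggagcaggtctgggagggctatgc
KLF4: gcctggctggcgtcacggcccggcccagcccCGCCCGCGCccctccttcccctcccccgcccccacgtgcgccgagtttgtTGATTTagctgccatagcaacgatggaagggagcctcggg

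Of the 9 factors, 8 matched 15 annotated starts in the promoter table, and 11 motifs were searched on both strands in the 250 bases before each start. SPI1 had no entry there, so its promoter was not searched. EGR1 held 2 CArG boxes, CCATATTAGG at -105 to -96 and CCATATATGG at -83 to -74. EGR2 held 1 CArG box, CCATATATGG at -71 to -62, and 1.16% of all 35116 windows in the table held such a box. The C/EBP letters TTNNGCAA were found in 1 of the 15 windows, that of a GFI1 start, as TTGCGCAA at -142 to -135, against 9.05% of all windows. This match reads the same on both strands. The EGR letters GCGNGGGCG were found in EGR1 and KLF4 (8.41% of all windows) and the GFI1 letters AAATCA in EGR2 and KLF4 (11.6%). The ZEB letters CACCTG were found at 1 IRF8 start (17.5%), in a window that lies wholly in IRF8 exons. The BCL6 windows and the ZEB2 window also lie wholly in exons, and some GFI1 and IRF8 windows do in part. The remaining 6 motifs had no match, namely CRE (TGACGTCA, 1.65% of all windows), NBRE (AAAGGTCA, 1.05%), BCL6 (TTCCTNGAA, 1.37%), the IRF-ETS composite (2.41%), PU.1 (GAGGAAGT, 2.17%) and KLF (CCACACCC, 2.97%). No matches of different motifs overlapped.

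Across the 9 genes the controls and the CEBPB libraries held different mixtures. EGR1, NR4A1, BCL6 and GFI1 rose in the CEBPB libraries, IRF8, SPI1 and KLF4 fell, and ZEB2 and EGR2 did not pass the test. The changes ran from -2.24 for IRF8 to 3.54 for NR4A1 on the log2 scale. The edgeR quasi-likelihood test covered 13698 identifiers, of which 48.5% passed an adjusted p of 0.05, 23.7% higher and 24.7% lower in the CEBPB libraries. Against that background 4 of the 9 factors rose and 3 fell. The TPM ranges of the groups lay apart for all 9, as they did for 77.4% of the tested identifiers. With library totals in place of trimmed-mean scaling, the split over all identifiers moved from 3251 higher and 3390 lower to 4424 higher and 2360 lower, as the median log2 fold change of all identifiers moved from 0.00 to 0.18. The factors' counts were 4 and 3 under both. Reads given below are those recovered from TPM and effective length. The edgeR test itself used the deposited expected counts, which are proportional to TPM and differ from these reads. All 9 passed the filter on low counts, EGR2 and NR4A1 through the CEBPB libraries, where they exceeded its minimum of 0.482 CPM.

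Before these values the labels were checked on CEBPB itself, which encodes C/EBPβ. It stood at 4.72 and 4.47 TPM (a level per transcript length, with equal totals for all libraries) in the controls, against 536 TPM in CEBPB replicate 1 and 339 TPM in replicate 2. The deposited counts summed to 18151225 to 21950575 per library. Of 10 myeloid markers 6 were above 1 TPM in every library. Their sum was 2118.4 to 2231.9 TPM for controls and 8218.8 to 8532.5 TPM for CEBPB libraries. That rise was carried by the lysozyme gene LYZ, at 1412.7 and 1307.7 TPM against 7686.3 and 7921.1 TPM. ITGAM and CD14 were also higher in both CEBPB libraries. CSF3R, CSF1R, TYROBP, LAPTM5, SPI1 and MPO were lower, and CD33 overlapped. The granule gene MPO was at 1.79 TPM or less in the controls. Defining markers of other lineages were at or near 0: the summed level of 5 erythroid markers did not exceed 0.0568 TPM, of 5 T cell markers 0.263 TPM and of 5 B cell markers 2.12 TPM. The sum of 5 megakaryocyte markers was 1.07 and 1.18 TPM in the controls against 0.326 and 0.431 TPM in CEBPB replicates 1 and 2. That of 5 fibroblast and epithelial markers was 0.458 and 0.756 TPM against 1.93 and 0.944 TPM, of which COL1A1 made up at most 1.84 TPM. The part of these low levels in the results was not tested. In bulk RNA, fewer cells expressing a gene and less of its RNA per cell cannot be told apart.

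**Figure D1:**
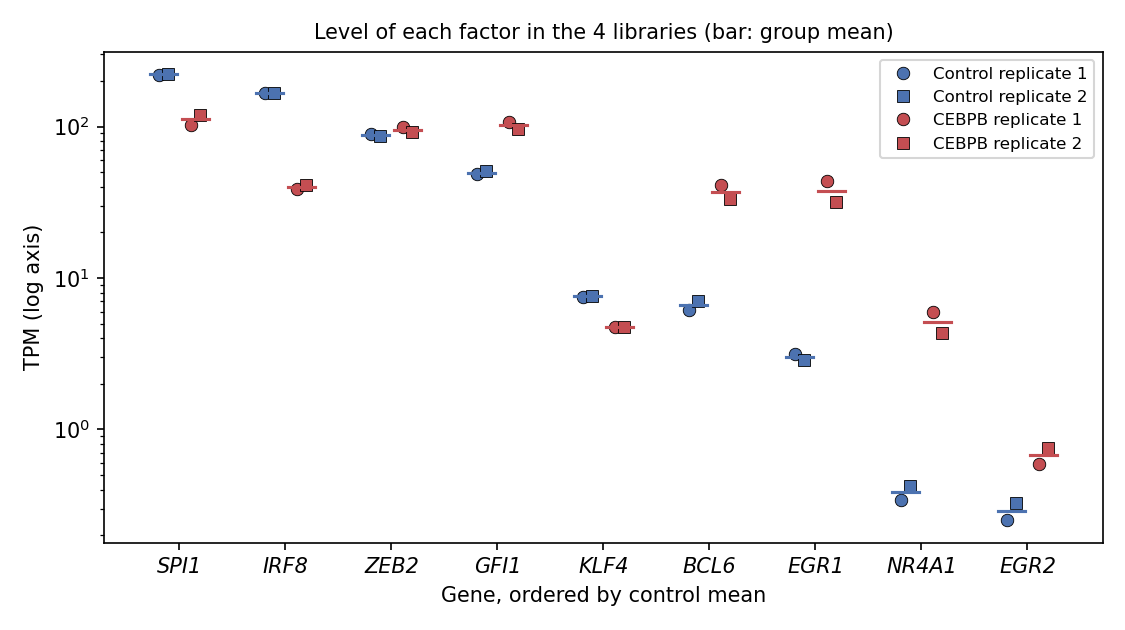
TPM of each of the 9 factors (log axis) in the 2 control libraries (blue) and the 2 CEBPB libraries (red), with circles for replicate 1, squares for replicate 2 and bars for group means. SPI1 and IRF8 lead in the controls at 221 and 166 TPM, while EGR1, BCL6 and NR4A1 move up the most.

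The pair that works together on monocyte and dendritic cell genes, PU.1 and IRF8, fell. IRF8 (ENSG00000140968.12, chromosome 16, 85898803 to 85922609, plus strand) read 166 TPM in each control and 38.5 and 41.3 TPM in CEBPB replicates 1 and 2. Both CEBPB libraries lay far below both controls. The log2 difference was -2.24 (SE 0.08, edgeR adjusted p = 0.00012), with 4582 and 4894 reads behind the controls and 838 and 824 behind the CEBPB libraries. SPI1 (ENSG00000066336.12, chromosome 11, 47354860 to 47378576, minus strand) read 218 and 223 TPM in the controls and 103 and 120 TPM in the CEBPB libraries. The groups did not overlap and the CEBPB libraries differed more from each other than the controls did. SPI1 changed by -1.16 (SE 0.11, edgeR adjusted p = 0.00095). Its mean of 112 TPM was the highest of the 9 in the CEBPB libraries, although GFI1, at 107 TPM, was above it in CEBPB replicate 1.

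KLF4, the zinc finger factor that acts in monocytes after IRF8, fell too, from a low level. Its values (ENSG00000136826.15, chromosome 9, 107484852 to 107490482, minus strand) were 7.54 and 7.58 TPM in the controls and 4.75 and 4.71 TPM in the CEBPB libraries. The SD in TPM was 0.0307 for controls and 0.0312 for CEBPB libraries (n = 2 each), and the groups did not overlap. The log2 difference was -0.86 (SE 0.15, edgeR adjusted p = 0.00596), the smallest fall of the 3. Its adjusted p in edgeR reached 0.0333 without control 2, the nearest to the threshold of the 7 called factors.

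GFI1, the granulocytic repressor, rose. It read 48.5 and 50.6 TPM in the controls, and 107 and 96.4 TPM in the CEBPB libraries (ENSG00000162676.13, chromosome 1, 92474762 to 92486876, minus strand). Both CEBPB values lay above both controls, with a log2 difference of 0.86 (SE 0.07, edgeR adjusted p = 0.00059). GFI1 is the factor whose promoter stretch holds the C/EBP letters shown above, which 9.05% of all windows in the promoter table also held. The deposited values carry no measure of binding there, and a link between these letters and the rise was not tested.

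Because PU.1 and IRF8 fell while GFI1 rose, the balance within the set shifted. The ratio of SPI1 to GFI1 in TPM was 4.50 and 4.42 in the controls and 0.964 and 1.25 in the CEBPB libraries. The ratio of IRF8 to GFI1 went from 3.43 and 3.29 to 0.359 and 0.428, so IRF8 was above GFI1 in both controls and below it in both CEBPB libraries. SPI1 and IRF8 made up 71.2% and 71.5% of the summed TPM of the 9 factors in the controls and 32.0% and 38.0% in the CEBPB libraries. GFI1 made up 8.98% and 9.27%, then 24.2% and 22.7%. The summed level itself went from 540 and 545 TPM to 443 and 425 TPM. These ratios and shares are descriptions and were not tested.

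The inducible factors EGR1 and NR4A1 showed the largest rises of the set. EGR1, a zinc finger factor of macrophage development and of growth responses, read 3.13 and 2.89 TPM in the controls and 43.5 and 31.7 TPM in the CEBPB libraries (ENSG00000120738.8, chromosome 5, 138465490 to 138469315, plus strand). Its CEBPB values differed from each other by more than the control values, yet the lower of them was still far above both controls. The log2 difference was 3.47 (SE 0.18, edgeR adjusted p = 0.0002), or 11.1-fold. NR4A1, also called NUR77, read 0.342 and 0.423 TPM in the controls and 5.92 and 4.36 TPM in the CEBPB libraries (ENSG00000123358.20, chromosome 12, 52022832 to 52059507, plus strand). Only 20 and 21 reads stood behind the control values, against 248 and 170 in the CEBPB libraries. It changed by 3.54 (SE 0.31, edgeR adjusted p = 0.00076), or 11.6-fold.

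EGR2, the close relative of EGR1 whose promoter also holds a CArG box, did not pass. It read 0.251 and 0.324 TPM in the controls and 0.595 and 0.759 TPM in the CEBPB libraries (ENSG00000122877.18, chromosome 10, 62811996 to 62919900, minus strand). These levels rested on 9, 17, 28 and 24 reads, the lowest depth of the 9. The groups did not overlap, and the log2 difference was 1.04 (SE 0.52, edgeR adjusted p = 0.156), so a difference was not detectable at this depth. The ratio of EGR1 to EGR2 in TPM was 12.5 and 8.91 in the controls and 73.1 and 41.8 in the CEBPB libraries, with few EGR2 reads in its denominator. Whether the changes of EGR1 and EGR2 differ was not tested.

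BCL6, a BTB zinc finger repressor best known from germinal centre B cells and also expressed in myeloid cells, rose. It read 6.16 and 7.0 TPM in the controls and 41.0 and 33 TPM in the CEBPB libraries (ENSG00000113916.18, chromosome 3, 187721377 to 187745727, minus strand). The groups lay well apart, with a log2 difference of 2.31 (SE 0.13, edgeR adjusted p = 0.00024). An antisense gene that overlaps the BCL6 gene, AC072022.2, was listed at 0 in both controls and at 0.372 and 0.311 TPM in the CEBPB libraries. The strand setting of the counting is not given in the sources used here, so reads of BCL6 and of this antisense gene may not be told apart. NR4A1 and ZEB2 are also overlapped by genes on the opposite strand. Those genes, and a further antisense gene over BCL6, AC072022.1, have no level in these data.

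ZEB2, a zinc finger and homeodomain repressor of monocytes and dendritic cells, was the abundant factor that moved least. It read 89.5 and 86.7 TPM in the controls and 98.6 and 92.1 TPM in the CEBPB libraries (ENSG00000169554.23, chromosome 2, 144364364 to 144524583, minus strand). With between 4241 and 5943 reads per library, its log2 difference was -0.07 (SE 0.06, edgeR adjusted p = 0.432). The sign depended on the scaling: it was 0.11 under library-total scaling (edgeR adjusted p = 0.248), and again 0.11 when limma was run on log2(TPM + 1) (limma adjusted p = 0.228), where all identifiers shift upward together.

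The order of the levels changed with these moves. In the controls it ran SPI1, IRF8, ZEB2, GFI1, KLF4, BCL6, EGR1, NR4A1, EGR2, and the ranges of all 8 neighbouring pairs were apart. In the CEBPB libraries it ran SPI1, GFI1, ZEB2, IRF8, EGR1, BCL6, NR4A1, KLF4, EGR2, and the ranges of 3 of the 8 neighbouring pairs were apart. SPI1, GFI1 and ZEB2 then stood at 112, 102 and 95.4 TPM, with overlapping neighbours. IRF8, EGR1 and BCL6 stood at 39.9, 37.6 and 37.0 TPM, likewise overlapping, although they had spanned 166 to 3.01 TPM in the controls.

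CEBPB replicate 1, the library with the higher CEBPB level, lay farther from the control mean than replicate 2 for 6 of the 7 called factors. KLF4 was the exception. Among all 6537 called identifiers above 0 TPM in every library, 59.2% lay farther in replicate 1. With 1 library at each CEBPB level, the part of this difference in the results was not tested.

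**Figure D2:**
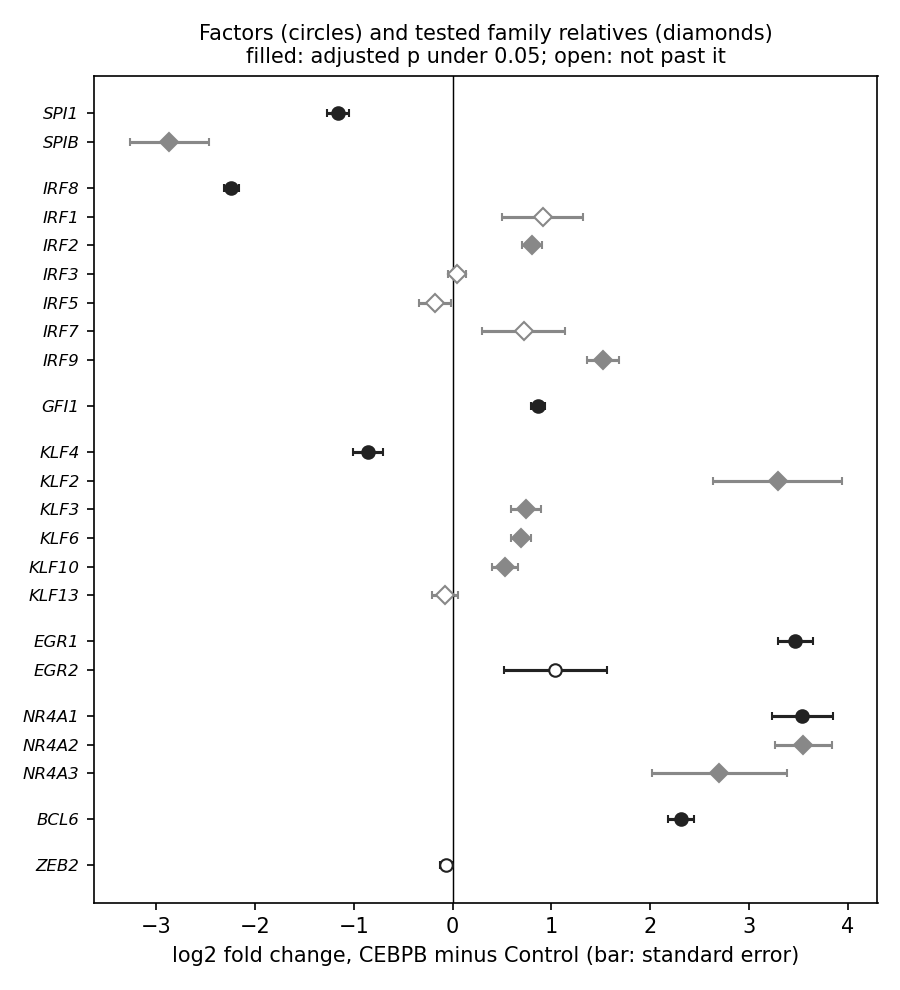
Log2 fold change (CEBPB minus Control, bars are standard errors) of the 9 factors (circles) and of 14 tested relatives (diamonds), grouped by family, with filled symbols for adjusted p under 0.05. The 3 NR4A genes sit together between 2.70 and 3.55, and none of them passed the filter on the controls alone. IRF8 at -2.24 lies apart from the other IRF genes and KLF4 at -0.86 from the other KLF genes.

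Relatives within the same families moved in part with the factors and in part against them. Of 21 listed relatives 14 had enough counts to test, and 8 rose and 1 fell, with a median log2 fold change of 0.73 against 0.00 for all identifiers. SPIB, the ETS factor closest to PU.1 and known from B cells and plasmacytoid dendritic cells, fell as SPI1 did. It read 2.08 and 1.89 TPM in the controls and 0.293 and 0.318 TPM in the CEBPB libraries (-2.87, SE 0.40, edgeR adjusted p = 0.00315). NR4A2, the receptor nearest to NR4A1, rose from 0.534 and 0.430 TPM to 7.46 and 5.52 TPM (3.55, SE 0.29, edgeR adjusted p = 0.00064). In the IRF family, IRF9, a factor of the interferon response, rose from 4.06 and 5.09 to 15.9 and 13.9 TPM (1.52, edgeR adjusted p = 0.00123). IRF2 rose from a mean of 18.9 to 37.3 TPM (0.80, edgeR adjusted p = 0.00224). IRF1, IRF3, IRF5 and IRF7 did not pass, and IRF1 read 46.6 TPM in CEBPB replicate 1 and 18.5 TPM in replicate 2.

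The other 5 relatives that rose are named after their values were seen. The KLF genes KLF2 (3.29), KLF3 (0.74), KLF6 (0.69) and KLF10 (0.53) rose while KLF4 fell, and NR4A3 rose by 2.70 on the log2 scale. KLF2 rested on 4 and 3 reads in the controls and NR4A3 on 4 and 8, so the sizes of these changes are uncertain. Both were under the filter's minimum of 0.482 CPM in the 2 controls and entered the test through the CEBPB libraries, while SPIB entered it through the controls. NR4A2 was under that minimum in control 2 (0.430 TPM) and also needed the CEBPB libraries to enter. The part of these genes in the counts of relatives therefore follows in part from the filter. Several of the lists share genes with each other and with the factors. The number of relatives that rose was 4 without control 1, 4 without control 2 and 5 with DESeq2.

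Corepressors and partners through which these factors act moved in both directions. Of 16 listed cofactors 4 rose and 6 fell, with a median of -0.08 that became 0.10 with library totals, where 6 rose and 2 fell. RUNX1, a partner of PU.1 and C/EBP factors in myeloid genes, fell from 60.0 and 62.3 TPM to 31.0 and 26.0 TPM (-1.28, SE 0.08, edgeR adjusted p = 0.00037). RCOR1, which joins GFI1 to the demethylase KDM1A, rose from 26.1 and 29 TPM to 56.9 and 52.0 TPM (0.80, edgeR adjusted p = 0.00112). NAB1, a corepressor of EGR factors, rose from a mean of 20.7 to 37.3 TPM (0.67, edgeR adjusted p = 0.0053). Without control 1, 3 cofactors fell, and without control 2, 2 rose.

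Immediate-early genes, induced by a stimulus without new protein synthesis as EGR1 and NR4A1 are, did not all rise. Of 19 tested members of 22 listed, 10 rose and 6 fell, with a median of 0.69. Among the risers, KLF2 and NR4A3 again entered through the CEBPB libraries. NR4A2 and PHLDA1 were under the filter's minimum of 0.482 CPM in control 2 (0.430 and 0.445 TPM) and also needed those libraries. TRIB1, the pseudokinase through which C/EBPα is marked for breakdown, rose from 9.0 and 6.79 TPM to 201 and 202 TPM (4.50, edgeR adjusted p = 8.3e-05). PPP1R15A, a phosphatase subunit of the stress response, rose from a mean of 22.6 to 51.0 TPM (0.99, edgeR adjusted p = 0.00049) and JUN from 7.47 to 20 TPM (1.24, edgeR adjusted p = 0.00063). FOS, which like EGR1 is a classic target of serum response factor, fell from 27.5 and 26.5 TPM to 15.9 and 14.5 TPM (-1.0, SE 0.08, edgeR adjusted p = 0.00067). The fall of FOS and the rise of EGR1 were each past the threshold in the same libraries.

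**Figure D3:**
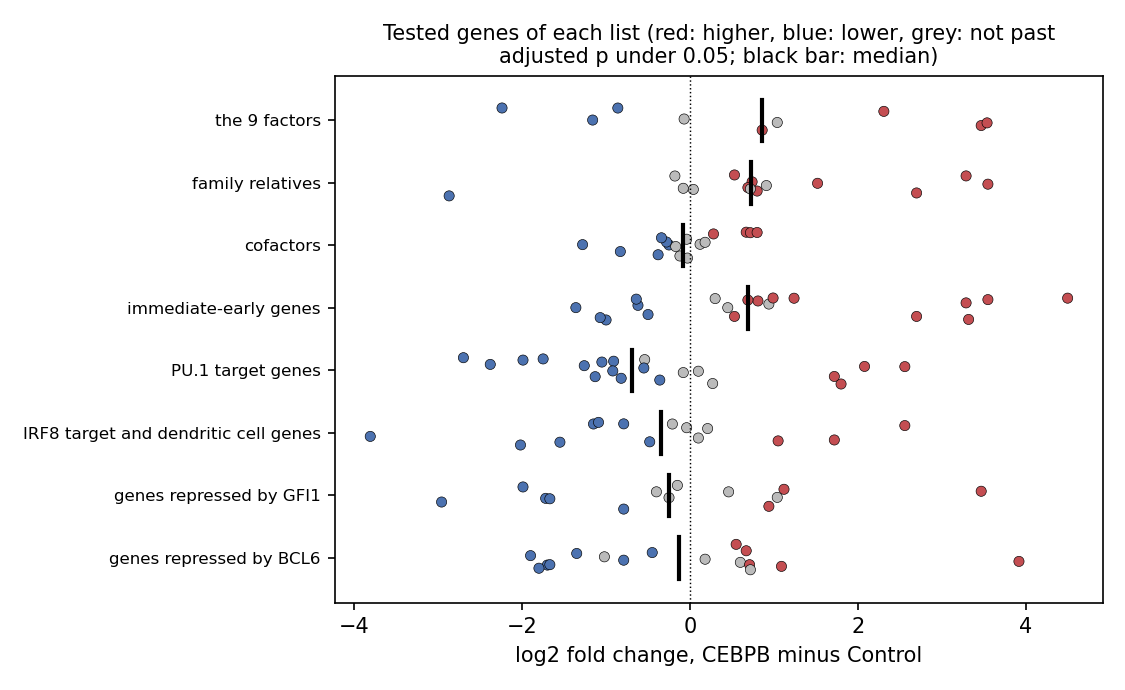
Log2 fold change (CEBPB minus Control) of each tested gene in the 9 factors and 7 related lists, with red for higher, blue for lower, grey for not past the threshold and a black bar at the list median. The PU.1 targets have the lowest median, -0.69, with 12 of 20 genes lower and 4 higher.

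Genes known as targets of the factors were counted in the same fit. Of 20 PU.1 targets, all tested, 12 fell and 4 rose (median -0.69, and -0.51 with library totals). PTPN6, the phosphatase SHP-1, fell from 175 and 165 TPM to 57.4 and 56.6 TPM (-1.75, SE 0.07, edgeR adjusted p = 0.00013). The Fc receptor gene FCGR1A fell from a mean of 60.5 to 13.1 TPM (-2.38, edgeR adjusted p = 0.00033), a value made uncertain by near-identical copies of that gene. Against that direction, the oxidase gene CYBB rose. It went from 141 and 140 TPM to 512 and 534 TPM (1.72, SE 0.07, edgeR adjusted p = 0.00015). ITGAM (1.80) and CD14 (2.08) also rose, and are named after their values were seen.

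Of 20 listed IRF8 target and dendritic cell genes 14 were tested, and 7 fell and 3 rose (median -0.34, and -0.16 with library totals). CYBB, just described, is also on this list. FLT3, the receptor kinase of dendritic cell precursors, fell from 29 and 32.5 TPM to 8.62 and 8.56 TPM (-2.02, edgeR adjusted p = 0.0002). CST3, the protease inhibitor cystatin C, fell from a mean of 115 to 61.0 TPM (-1.09, edgeR adjusted p = 0.00039). BATF3, a partner of IRF8 in dendritic cells, also rose, by 1.05 on the log2 scale, and is named after its value was seen, as is TLR9, which fell and entered the test through the controls.

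Genes known to be repressed by GFI1 split. Of 13 tested members of 15 listed, 3 rose and 5 fell (median -0.25, and -0.07 with library totals). The inhibitors of DNA binding ID1 and ID3 fell, ID1 from a mean of 5.50 to 1.88 TPM (-1.72, edgeR adjusted p = 0.00185) and ID3 from 8.62 to 1.26 TPM (-2.96, edgeR adjusted p = 0.00035). CDKN1A, which encodes p21, fell from 263 and 225 TPM to 79.7 and 93.4 TPM (-1.67, edgeR adjusted p = 0.0006). EGR1, itself on this list, rose together with GFI1, as did MEIS1 (0.94) and CDKN2B (1.12), which are named after their values were seen. The ratio of EGR1 to GFI1 in TPM went from 0.0646 and 0.0571 in the controls to 0.405 and 0.329 in the CEBPB libraries.

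Of 16 tested genes among 18 known to be repressed by BCL6, 5 rose and 7 fell (median -0.13, and 0.05 with library totals). MYC fell from 230 and 245 TPM to 74.4 and 80.2 TPM (-1.80, SE 0.09, edgeR adjusted p = 0.0002), and the adhesion receptor gene CD44 from a mean of 391 to 136 TPM (-1.70, edgeR adjusted p = 0.00033). CDKN1A stands on this list too. CXCL10, a chemokine gene among the 5 that rose, entered the test through the CEBPB libraries and is named for that after its values were seen. Every list had a called share above the 48.5% of all identifiers, from 61.5% for GFI1-repressed genes to 84.2% for immediate-early genes. Some of these shares include genes that entered the test only through the group where they were higher. The lists were also chosen with earlier results of these data known. The shares are therefore descriptions, and no list was tested against other genes.

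The files also hold an effective transcript length per gene and library, a value that moves when the mixture of its transcripts moves. IRF8 averaged 1611 and 1600 bases in the controls and 1331 and 1398 in the CEBPB libraries (log2 ratio -0.24, SE 0.03, unadjusted p = 0.00675, limma adjusted p = 0.278). BCL6 went from 2899 and 2795 to 3294 and 3205 bases (0.19, unadjusted p = 0.0104, limma adjusted p = 0.288). ZEB2 went from 2772 and 3041 to 3689 and 3432 bases (0.29, SE 0.07, unadjusted p = 0.027, limma adjusted p = 0.334). None of these 3 differences passed the adjusted threshold. KLF4 was at 2476 and 2366 against 2253 and 2097 bases (-0.16, unadjusted p = 0.0634, limma adjusted p = 0.407).

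No identifier passed the length test at an adjusted p of 0.05 (0 of 13698, or 0%, limma), and 13.2% had an unadjusted p under 0.05, 1802 identifiers in all. The 3 factors with an unadjusted p under 0.05 are therefore reported as not passing. For SPI1, GFI1, EGR1 and EGR2 the log2 ratio of length was within 0.05 of 0, with an SE of 0.24 for EGR2. That of NR4A1 was -0.20 (SE 0.14, unadjusted p = 0.243, limma adjusted p = 0.548). The length ranges of the groups lay apart for 5 of the 9 factors, namely IRF8, GFI1, KLF4, BCL6 and ZEB2, as they did for 52.3% of all tested identifiers. They overlapped for SPI1, EGR1, EGR2 and NR4A1.

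**Figure D4:**
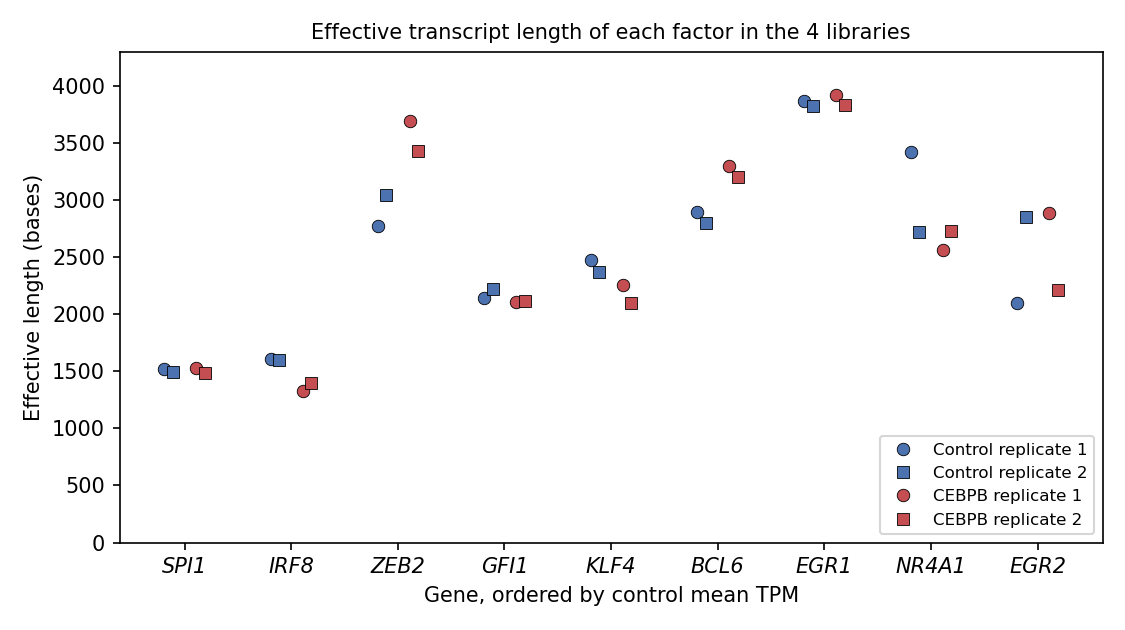
Effective transcript length in bases of each factor in the 2 control libraries (blue) and the 2 CEBPB libraries (red), with circles for replicate 1 and squares for replicate 2. IRF8 is shorter and BCL6 and ZEB2 are longer in both CEBPB libraries, none of them past the adjusted threshold.

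The genes most like each factor were taken as those nearest in level and change, by Euclidean distance of log2(TPM + 1) over the 4 libraries among 12561 other named genes. IRF8 lay nearest to LGALS9, which encodes galectin-9 (distance 0.158), and then to NPM3. NR4A1 lay nearest to PHLDA1, a gene of the immediate-early list that read 0.514 and 0.445 TPM in the controls and 6.40 and 4.69 TPM in the CEBPB libraries (distance 0.217), and then to KCNE1. SPI1 lay nearest to NOLC1 and SH3KBP1, GFI1 to NRBP1 and UBXN4, KLF4 to MFSD14CP and NUDT18, and BCL6 to IL12RB2 and PELO. EGR1 lay nearest to FRG1EP and OSR2, EGR2 to WTIP and RIBC1, and ZEB2 to DBF4 and INTS10. With 4 libraries in 2 groups, such likeness says little beyond a shared level and a shared contrast.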

How the data were processed

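Poly(A) RNA of 4 OCI-AML3 libraries was sequenced, and per the submitters' processing notes Trimmomatic 0.39, kallisto 0.46.2 and the GRCh38 build were used. The labels name a stranded kit, and how strand was set in counting, which annotation was used and how transcripts were summed per gene are not given in the sources used here. The authors deposited expected counts, TPM and a length of another unit, the effective length in bases. Each deposited expected count equals the TPM times 1 constant per library, so reads were recovered by multiplying TPM by effective length and scaling back to each library's total, and 58.7% to 60.8% of recovered values between 0.2 and 500 lay within 0.01 of a whole number.

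Identifiers were matched to symbols for 35690 of 41084, and coordinates come from GENCODE v29. Expected counts were rounded, filtered with filterByExpr (13698 left), normalised by TMM (0.938 to 1.09) and fitted by quasi-likelihood in edgeR 4.0.16 (R 4.3.3), with p Benjamini-Hochberg adjusted over all tested identifiers. Standard errors are the fold change over the square root of F. Length was tested with limma 3.58.1. On simulated data, 80 genes were changed 1.5-fold, 80 changed 2-fold and 40 changed 4-fold, with 13443 genes tested. That is a far smaller share than the 48.5% called in the real libraries. The fit recovered 53.8% of the 1.5-fold, 61.2% of the 2-fold and 90% of the 4-fold changes, with 6 false calls. These rates describe that setting, and rates at the real share of changes were not estimated. Small changes can still be missed. Control libraries differed by a chi-square per degree of freedom of 4.66 and CEBPB libraries by 8.86, more than counting error alone, so no library was treated as a copy of another.

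The members and lists were chosen with earlier results of these data known, and list membership comes from general knowledge. Named are the 9 factors, CEBPB, up to 4 genes per list with the smallest adjusted p (1 of each direction where both passed), and the 2 nearest genes of each factor; some genes named by this rule are not reported here. Alternatives were other scalings, no filter, DESeq2 1.42.0, limma on log2 TPM with 1 or 0.1 added, recovered reads with a length offset, a replicate block and each library left out. Figures were drawn with matplotlib 3.10.9.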

Additional observations from a re-analysis of the deposited data

How the results depend on the processing

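The 7 called factors kept direction and call under all 12 alternatives run for each, and EGR2 stayed short of the threshold in all 12 (adjusted p from 0.1 to 0.545). The log2 fold change ranged from -2.32 to -2.03 for IRF8, from -1.31 to -0.98 for SPI1, from -0.89 to -0.58 for KLF4, from 0.83 to 1.04 for GFI1, from 2.20 to 2.49 for BCL6, from 3.25 to 3.65 for EGR1 and from 2.14 to 3.72 for NR4A1, whose lowest value came with 1 added to its low TPM. ZEB2 turned from -0.07 to 0.11 with library totals and with limma on log2(TPM + 1) or log2(TPM + 0.1).

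Relatives that rose numbered 8, and 4 to 7 with 1 library left out and 5 with DESeq2. Cofactors that rose numbered 4, and 2 to 4 with 1 library left out. Cofactors that fell numbered 6, and 3 to 5 with 1 library left out and 2 with library totals, with limma on log2(TPM + 1) and with limma on log2(TPM + 0.1). The cause was not tested. In log2 length ratio, SPI1 (0.00) turned to -0.01 without control 2 and -0.02 without CEBPB replicate 1, EGR1 (0.01) to -0.00 without CEBPB replicate 1, and EGR2 (0.05) to -0.17 without control 1 and -0.14 without CEBPB replicate 1, and with 1 library left out their highest ratios were 0.02, 0.03 and 0.27. Over all 300 bases of the promoter table, BCL6 letters were found in 1 member window in place of 0 and ZEB letters in 2 in place of 1.

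The replicate numbers pair nothing the labels name (correlation of deviations -0.0131 over 2 pairs). With a replicate block 3174 identifiers were higher and 3308 lower, and no factor's call changed. With 1 library of a group left out there is no range, so the order of levels has no such alternative, and its remaining library is taken to have the spread of the intact group. Depth limits EGR2 most, with 9 to 28 reads per library.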
